A study of Danio rerio with 24 samples.

Results

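The cytosolic ribosomal protein genes were taken as all genes whose symbol starts with rpl or rps and a digit, or with rplp, without the rps6k kinases and without the genes of the mitochondrial ribosome. The symbols came from the platform annotation, updated through the gene number. The rule found 78 probe sets, of which 77 reached a log2 signal of 4 on at least 3 of the 24 arrays. With 1 probe set kept per gene, that with the highest mean, 73 genes remained of the 6451 tested genes with 1 symbol. All 73 were above the filter on all 24 arrays, so no member entered through a single group. They comprise 37 genes of the large subunit and 22 of the small subunit, here called the core, together with 3 genes of the ribosomal stalk, 9 genes that exist in copies of the same number, and 2 relatives by name, rpl7l1 and rps19bp1. RefSeq holds 84 zebrafish symbols that meet the rule on the name, and 11 of them are not analysed here.

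RNA came from the caudal fin of wild-type zebrafish at 0, 12, 24 and 48 h after amputation, 3 arrays for each time in control fish and 3 in metabolic memory fish. Memory fish had received repeated injections of streptozocin, a drug that kills the insulin-producing beta cells, at 350 mg/kg, and had then lived 60 days without it. Controls are described as untreated in the series' design and as injected with citrate buffer in the protocol. Metabolic memory means that effects of an earlier high blood glucose persist after glucose has returned to normal. The protocol speaks of triplicate samples from 15 fins, without saying that they were separate fish. The p-values therefore measure the spread between these samples, which may be technical. The age and the blood glucose of the fish are not given in the sources used here.

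A ribosome holds 1 copy of nearly every ribosomal protein, so cells make these proteins in matched amounts, from abundant and stable mRNAs. In vertebrates most of these mRNAs start with a tract of pyrimidines, the 5' TOP motif, through which the kinase mTOR sets how much of each mRNA is translated, so that output can change with little change in mRNA. New ribosomes also need RNA polymerase I, which transcribes ribosomal RNA, and a large set of assembly and export factors that work in the nucleolus and do not stay on the finished ribosome. Fin regrowth needs new protein, as the stump forms a wound epidermis and then a blastema of dividing cells.

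The values are log2 signals, and for most ribosomal protein genes they lie near the top of the scale. The mean signal of a member over 24 arrays ran from 7.17 to 14.81 with a median of 13.95, and the highest single value on any array was 15.55. A signal of 13 or more was reached by 67 of the 73 members, and the 6 below it were rpl22l1, rps27.2, rplp2, rpl7l1, rps27l and rps19bp1. Signals of different probe sets also depend on the probes and do not rank transcripts, and near the top of the scale a fold change can be compressed, which was not tested. As the arrays measure relative signal after normalisation between arrays, a change in total RNA or in ribosomes per cell would not be seen, and in whole fins fewer cells of a type and less RNA per cell cannot be told apart.

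Between the groups, the members varied little. The range over the 8 group means was 0.074 to 0.343 log2 units for the 59 core genes, with a median of 0.163, and 58 of them stayed under 0.3. Of all tested probe sets only 2.86% stayed under 0.3 and the median range was 1.16. Among the 81 other tested probe sets with a mean signal of at least 13, the median range was 0.49 and 29.6% stayed under 0.3. The bright probe sets as a group thus also varied less than the rest. Array controls aside, members were 54 of the 100 and 70 of the 200 brightest probe sets. A joint change of the members could therefore be damped by the normalisation between arrays, which was not tested. The smallest core range belonged to rpl36a (0.074), rps18 (0.080) and rps29 (0.085), and the largest to rps2 (0.34), a protein at the mRNA entry of the small subunit. A range over 0.5 was found in 6 members, the same 6 with a mean signal under 13. Arrays of a group also lay close together, with a median within-group SD of 0.062 for the members and 0.177 for all tested probe sets.

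**Figure D1:**
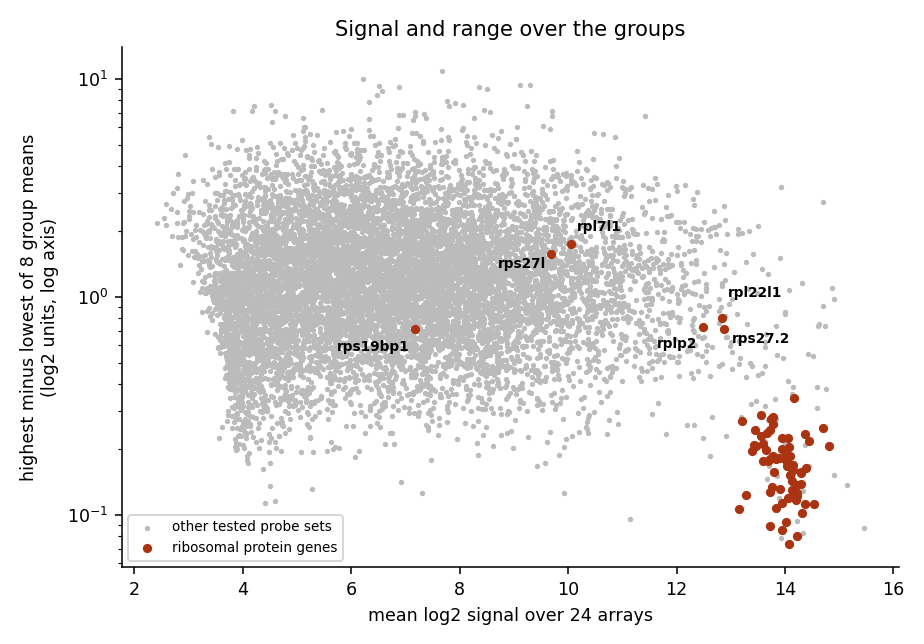
Mean log2 signal over 24 arrays (x axis) against the highest minus the lowest of the 8 group means in log2 units (y axis, log scale) for each tested probe set; ribosomal protein genes are red. The core lies at the bright end with ranges of 0.074 to 0.343, and the 6 members named in the plot, all with a mean under 13, have ranges over 0.5.

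Differences between groups were tested with limma in 1 fit over all 24 arrays, and a call means an adjusted p under 0.05 (Benjamini-Hochberg, over all 10140 tested probe sets). Of the 73 members, 47 passed the test in none of the 17 comparisons, and 45 of the 59 core genes were among them. In each of the 6 comparisons with 0 h, 35.6% to 37.8% of all tested probe sets were called higher and 31.5% to 34.0% lower. The share of all tested probe sets called in none of the 17 was not counted, so the 47 cannot be set against it. The 47 also holds only for this fit, in which 26 members were called in at least 1 comparison. With intensity trend and robust estimation, 33 members were called at 12 h against 0 h in control fins alone. The standard error of a group difference had a median of 0.075 for the members against 0.142 for all tested probe sets. The smallest member difference from 0 h called in any later group was 0.16. A shift of about 0.1 in a single gene was thus below what this fit called. A member that was not called is therefore not shown to be constant. Members ranked for a change over time were kept only where the arrays of the groups did not overlap. Such separation of arrays, here and below, is a description and no further support. Its share among all tested probe sets was not counted.

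In control fins at 12 h, the cytosolic ribosomal protein genes stood slightly above their level at 0 h. Of the 73, 17 were called higher and 3 lower, where 36.0% of all tested probe sets were called higher and 32.5% lower. The members' shares were 23.3% and 4.11%. The median difference was 0.10 log2 units against 0.02 for all tested probe sets, and 58 of 73 members lay above 0. The members were measured on the same arrays and are not replicates, so this count and those like it below only describe direction. The matching count over all tested probe sets is not given here for comparisons over time. Of the 10 core genes called higher, none exceeded 0.26, and 56 of the 59 core genes stayed within 0.2 of their 0 h level, as did 2073 of the 10140 tested probe sets. With the same tests run on an intensity trend with robust estimation, 29 members were called higher and 4 lower, and with only the control 0 h and 12 h arrays in the fit 4 were called higher and 1 lower. Without control 0 h replicate 2, or without control 12 h replicate 3, 13 members were called.

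The core genes with the largest rises at 12 h were rpl31, a large subunit protein at the exit of the peptide tunnel, at 0.26 ± 0.08 (SE, adjusted p = 0.00776), and rps4x, a small subunit protein, at 0.25 ± 0.08 (adjusted p = 0.00577). They were followed by rps6, the small subunit substrate of S6 kinase, at 0.25 ± 0.08 (adjusted p = 0.00747), and rpl10, a late-joining large subunit protein, at 0.20 ± 0.07 (adjusted p = 0.0227). The log2 signal of rps4x was 14.54, 14.59 and 14.67 on the control arrays at 0 h and 14.76, 14.78 and 14.99 at 12 h, without overlap. For rpl31 it was 13.49, 13.45 and 13.60 at 0 h and 13.69, 13.80 and 13.83 at 12 h, again apart, and 13.49, 13.47 and 13.50 at 24 h, back among the 0 h values. The others called were rps19, rpl26, rpl12, rpl11, rpl13a and rpl35a, at 0.17 to 0.19. All of these 10 calls were lost when only the 2 groups compared were fitted, and all but those of rpl31, rps4x and rps6 were lost without at least 1 array.

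By 24 h the small shift in control fins was gone. From 12 to 24 h, 7 members were called lower and 1 higher, where 8.89% of all tested probe sets were called lower and 11.2% higher. The median of the members was -0.11, and 64 of 73 lay below 0. The matching median and count over all tested probe sets are not given here. On these arrays the median signal over the tested probe sets was 6.76 to 6.79 at 12 h and 6.75 to 6.76 at 24 h. The core genes called lower were rpl31 (-0.28 ± 0.08), rps19 (-0.24 ± 0.08), rpl10 (-0.23 ± 0.07) and rpl13a (-0.20 ± 0.07). Arrays with the same replicate number deviated together in these 2 groups (correlations of 0.226, 0.150 and 0.205). With the replicate number as a block, 5 members were called lower and 1 higher, and the calls of rpl13a (adjusted p = 0.0549) and rplp2b (adjusted p = 0.0508) were lost. This count is not stable: it was 26 with intensity trend and robust estimation, 16 with no filter, 2 after another quantile normalisation, 1 with only the groups compared, and 3, 2, 3, 1 and 3 without control 12 h replicates 2 and 3 and control 24 h replicates 1, 2 and 3 in turn. The spiked hybridisation controls were also lower on the 24 and 48 h arrays of both arms (10.02 to 10.34) than on the 0 and 12 h arrays (10.44 to 10.67). The sample labels name no batch. Time and this difference cannot be told apart wherever 24 or 48 h is compared with 0 or 12 h, in either arm.

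At 24 h, 4 members were called higher and 4 lower than at 0 h in control fins (36.8% and 31.6% of all tested probe sets), with a median of -0.02. At 48 h the counts were 6 higher and 5 lower (37.5% and 32.5%), with a median of 0.01. No core gene was called higher at 24 h, and the only one lower was rpl10a, at -0.18 ± 0.08, a call lost under 8 alternatives. At 48 h, rpl35a and rpl12 were called higher by 0.18 and 0.16, and rpl37 lower, at -0.21 ± 0.07. The calls of rpl35a and rpl12 were lost under 6 alternatives each, 4 of them single arrays left out, and that of rpl37 under 2. The rpl12 protein sits at the base of the stalk. From 24 to 48 h, 2 members were called lower and none higher (15.9% and 15.0% of all tested probe sets), and they were rpl7l1 and rps19bp1. Without control 24 h replicate 3 or control 48 h replicate 1, no member was called in that step, and without control 48 h replicate 2 or 3, 1 was. Centring each array on its median made the 48 h split 4 higher and 8 lower, and another quantile normalisation made it 9 higher and 1 lower, and 7 higher and 1 lower at 24 h.

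**Figure D2:**
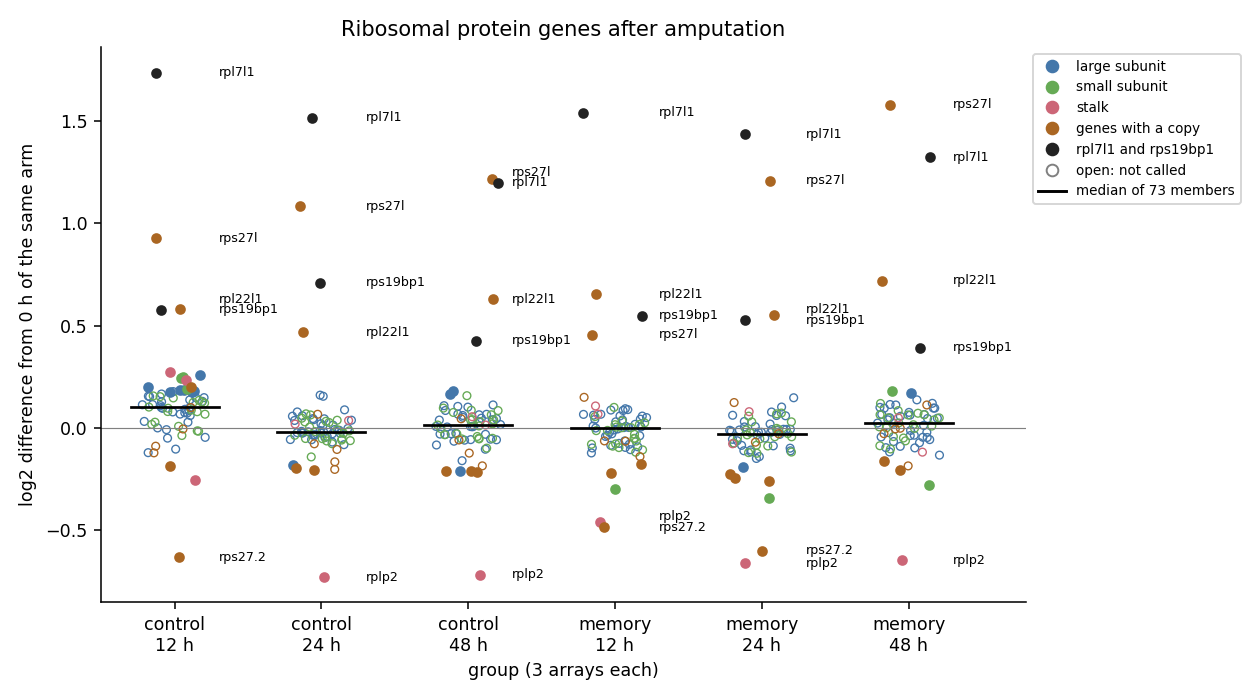
Log2 difference from 0 h of the same arm (y axis) for each of the 73 ribosomal protein genes in the 6 later groups of 3 arrays (x axis); filled points passed the limma test, open points did not, colours give the gene class and black bars the median. Most genes lie within 0.2 of 0, and rpl7l1, rps27l, rpl22l1 and rps19bp1 lie above them and rplp2 below them in the later groups.

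In memory fins the small rise at 12 h was not seen: the median was -0.001, 4 members were called higher and 5 lower (35.6% and 34.0% of all tested probe sets), and 36 of 73 lay above 0. This depends on the scaling. The centring used each array's median over all probe sets but the array controls, those below the filter included. The median over all deposited probe sets was 5.00 to 5.02 on the memory arrays at 0 h and 4.80 to 4.84 at 12 h. Over the tested probe sets alone it was 6.72 to 6.73 and 6.70 to 6.72. Centring each array on its median moved all tested probe sets by 0.20 in this comparison, and then 41 members were called higher and 2 lower with a median of 0.19, which is the size of that shift. At 24 h, 4 were called higher and 7 lower (36.7% and 31.5%), with a median of -0.03, and at 48 h 6 higher and 4 lower (37.8% and 32.0%), with a median of 0.02. After centring, the 24 h split was 7 higher and 5 lower and the 48 h split 4 and 4, and after another quantile normalisation they were 7 and 4 and 14 and 2. Between 12 and 24 h and between 24 and 48 h, 1 member each was called higher and none lower (22.2% higher and 17.5% lower, then 14.4% and 13.1%), rps27l in the first step and rps27.2 in the second. Centring made the first of these steps 1 higher and 16 lower, with a shift of -0.13 in all tested probe sets. The rps27.2 step was lost without memory 24 h replicate 3 or memory 48 h replicate 1, and 2 members were called without memory 24 h replicate 1 or memory 48 h replicate 2 or 3.

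The core gene that moved most in memory fins was rps2. Its log2 signal in memory fins was 14.32, 14.38 and 14.42 (0 h). The later arrays had 14.00, 14.07 and 14.15 (12 h), 14.06, 14.02 and 14.01 (24 h) and 14.22, 14.01 and 14.06 (48 h). In control fins it was 14.22, 14.19 and 14.30 (0 h). The values then were 14.08, 14.26 and 14.31 (12 h), 14.05, 14.15 and 14.08 (24 h) and 14.20, 14.16 and 14.05 (48 h). All 9 later memory arrays were below the 3 at 0 h. In control fins the 12 and 48 h arrays overlapped those at 0 h, and the 24 h arrays lay just below them. The differences from 0 h in memory fins were -0.30 ± 0.08 at 12 h (adjusted p = 0.00281), -0.34 ± 0.08 at 24 h (adjusted p = 0.000879) and -0.28 ± 0.08 at 48 h (adjusted p = 0.0049), and the first was lost after centring. In control fins the differences of rps2 were -0.02, -0.14 and -0.10 and were not called, and the difference between the arms' responses was not called either (adjusted p = 0.0824 at 12 h). The other core calls in memory fins were rpl10a at 24 h (-0.19 ± 0.08) and rps20 (0.18 ± 0.07) and rpl11 (0.17 ± 0.07) at 48 h. These calls were lost under 7, 5 and 6 alternatives, of which 4, 3 and 4 leave out a single array.

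The largest rise among the members was that of rpl7l1, a relative of rpl7 whose yeast counterpart is an assembly factor of the large subunit. In control fins its log2 signal was 8.69, 8.96 and 8.94 (0 h). At the later times it read 10.54, 10.51 and 10.76 (12 h), 10.40, 10.26 and 10.48 (24 h) and 10.00, 10.09 and 10.09 (48 h). In memory fins it was 9.09, 9.02 and 9.09 (0 h). After amputation it was 10.52, 10.55 and 10.75 (12 h), 10.50, 10.54 and 10.47 (24 h) and 10.51, 10.29 and 10.37 (48 h). Every later array was above every array at 0 h in both arms, which is a description only. The differences were 1.74 ± 0.10 at 12 h, a 3.33-fold rise (adjusted p = 1.91e-12), 1.52 ± 0.10 at 24 h and 1.20 ± 0.10 at 48 h in control fins. They were 1.54 ± 0.10, 1.44 ± 0.10 and 1.32 ± 0.10 in memory fins. The fall from 24 to 48 h in control fins, -0.32 ± 0.10, was called (adjusted p = 0.0164), and rpl7, the core gene of the same number, kept a range of 0.093 over all 8 groups.

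A second rise was that of rps27l, a copy of rps27 that is a p53 target in human cells. In control fins its log2 signal was 8.92, 8.78 and 9.01 (0 h). The later arrays had 9.74, 9.69 and 10.06 (12 h), 10.10, 9.77 and 10.09 (24 h) and 10.25, 10.21 and 9.90 (48 h). In memory fins it was 9.02, 8.87 and 8.66 (0 h). The values then were 9.26, 9.32 and 9.33 (12 h), 10.23, 9.91 and 10.03 (24 h) and 10.71, 10.26 and 10.31 (48 h). In both arms the later arrays were all above those at 0 h, and in memory fins the 12 h arrays were below those at 24 and 48 h. The control differences were 0.93 ± 0.14 (1.90-fold, adjusted p = 6.53e-06), 1.08 ± 0.14 and 1.22 ± 0.14. The memory differences were 0.46 ± 0.14 (1.37-fold, adjusted p = 0.00723), 1.21 ± 0.14 and 1.58 ± 0.14, the last a 2.99-fold rise. The step from 12 to 24 h in memory fins was 0.75 ± 0.14 (adjusted p = 0.000255).

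The other copies that rose were rpl22l1 and, among names that resemble a ribosomal protein, rps19bp1. The rpl22l1 gene encodes a close copy of rpl22, and in zebrafish the pair have opposed roles in blood stem cells. In control fins the log2 signal of rpl22l1 was 12.53, 12.46 and 12.42 (0 h). At the later times it read 13.05, 13.13 and 12.97 (12 h), 12.96, 12.84 and 13.02 (24 h) and 13.09, 13.12 and 13.09 (48 h). In memory fins it was 12.22, 12.29 and 12.38 (0 h). After amputation it was 12.93, 13.02 and 12.90 (12 h), 12.71, 12.92 and 12.92 (24 h) and 13.04, 12.94 and 13.07 (48 h). Later arrays lay above all 0 h arrays, with differences of 0.47 to 0.63 in control fins and 0.55 to 0.72 in memory fins, each ± 0.08, and the largest, in memory fins at 48 h, was 1.65-fold (adjusted p = 1.18e-07). Its partner rpl22 was called lower in control fins at 12 h (-0.19 ± 0.08) and 48 h (-0.21 ± 0.08) and in memory fins at 24 h (-0.23 ± 0.08), calls that were lost under 7, 6 and 5 alternatives in turn.

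The rps19bp1 gene encodes a protein that binds rps19 and works in the nucleolus, and is no constituent of the finished ribosome. In control fins its log2 signal was 6.69, 6.66 and 6.84 (0 h). The later arrays had 7.37, 7.18 and 7.36 (12 h), 7.55, 7.23 and 7.53 (24 h) and 7.05, 7.20 and 7.20 (48 h). In memory fins it was 6.90, 6.80 and 6.75 (0 h). The values then were 7.44, 7.28 and 7.39 (12 h), 7.41, 7.27 and 7.35 (24 h) and 7.03, 7.20 and 7.40 (48 h). All later arrays were above the 0 h arrays of their arm, by 0.58 ± 0.10, 0.71 ± 0.10 and 0.42 ± 0.10 in control fins and by 0.55 ± 0.10, 0.53 ± 0.10 and 0.39 ± 0.10 in memory fins. The other probe set of rps19bp1, with a mean signal of 6.11, also rose at every time, by 1.39 ± 0.16 at 12 h in control fins and 1.05 ± 0.16 in memory fins.

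The stalk of the large subunit, which recruits the elongation factors, is built from rplp0 with the acidic proteins P1 and P2. Here rplp2 fell, and its copy rplp2b was called lower at no time against 0 h. In control fins the log2 signal of rplp2 was 12.91, 12.86 and 12.998 (0 h). At the later times it read 12.50, 12.71 and 12.78 (12 h), 12.09, 12.33 and 12.16 (24 h) and 12.21, 12.17 and 12.22 (48 h). In memory fins it was 12.90, 12.97 and 12.88 (0 h). After amputation it was 12.39, 12.50 and 12.48 (12 h), 12.28, 12.21 and 12.26 (24 h) and 12.40, 12.17 and 12.23 (48 h). Every later array was below every 0 h array, and the 24 and 48 h arrays were lowest in control fins. The differences of rplp2 were -0.26 ± 0.09 at 12 h (adjusted p = 0.0141), -0.73 ± 0.09 at 24 h (adjusted p = 3.03e-07) and -0.72 ± 0.09 at 48 h in control fins. They were -0.46 ± 0.09, -0.66 ± 0.09 and -0.65 ± 0.09 in memory fins. The control call at 12 h was lost without control 0 h replicate 3, without control 12 h replicate 1, with only the groups compared and after another quantile normalisation.

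In contrast, rplp2b was called higher in control fins at 12 h, with log2 signals of 13.64, 13.61 and 13.69 at 0 h and 13.78, 13.96 and 14.03 at 12 h and a difference of 0.28 ± 0.08 (adjusted p = 0.00561), lost with only the groups compared. For rplp0 the control values were 14.33, 14.25 and 14.32 at 0 h and 14.33, 14.57 and 14.70 at 12 h, and the difference was 0.23 ± 0.09 (adjusted p = 0.0262), lost with only the groups compared and without control 0 h replicate 2 or control 12 h replicate 2 or 3. Neither gene was called at another time against 0 h or in memory fins, where rplp2b lay 0.05 to 0.11 and rplp0 between -0.12 and 0.07 from 0 h.

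Of the rps27 genes, which encode a zinc-binding protein of the small subunit, rps27.2 fell and then rose again. In control fins the log2 signal of rps27.2 was 13.25, 12.97 and 13.14 (0 h). The later arrays had 12.46, 12.53 and 12.47 (12 h), 12.84, 12.99 and 12.92 (24 h) and 12.76, 13.13 and 12.91 (48 h). In memory fins it was 13.17, 13.28 and 13.14 (0 h). The values then were 12.89, 12.81 and 12.44 (12 h), 12.73, 12.59 and 12.47 (24 h) and 13.12, 12.99 and 12.92 (48 h). The control arrays at 12 h were the lowest of that arm and those at 24 h were back near the 0 h arrays, whereas the memory arrays were below those at 0 h at all later times, at 48 h by less than before. At 48 h neither arm was called against 0 h, with a difference of -0.19 ± 0.12 in each. The difference was -0.63 ± 0.12 at 12 h in control fins (adjusted p = 6.34e-05), and -0.49 ± 0.12 at 12 h and -0.60 ± 0.12 at 24 h in memory fins (adjusted p = 0.00093 and 0.000112). The rise was called from 12 to 24 h in control fins (0.43 ± 0.12) and from 24 to 48 h in memory fins (0.42 ± 0.12), while the difference between the arms at 24 h, -0.32 ± 0.12, was not (adjusted p = 0.138). The chosen probe set of rps27.1 was called in no comparison, with differences from 0 h between -0.08 and 0.10. The 2 other probe sets of rps27.1 differ from it. At 12 h in control fins 1 was called lower, at -0.22 ± 0.08, and the other was at -0.17 ± 0.11. The latter was called lower at 48 h in control fins, at -0.26 ± 0.11.

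Smaller falls were seen in rps26 and rpl5b. The rps26 protein lies at the mRNA exit of the small subunit, and its log2 signals in memory fins were 13.35, 13.36 and 13.29 at 0 h and 13.11, 13.08 and 13.07 at 24 h, a difference of -0.25 ± 0.07 (adjusted p = 0.00408) that was lost after another quantile normalisation. It was also called lower in control fins at 24 h (-0.19 ± 0.07) and 48 h (-0.22 ± 0.07) and in memory fins at 12 h (-0.18 ± 0.07) and 48 h (-0.16 ± 0.07), calls that were each lost under 3 to 7 alternatives. Its memory 12 h difference turned to 0.02 after centring. Its copy rps26l was called once, higher in control fins at 12 h (0.20 ± 0.08), and this call was lost under 5 alternatives. The rpl5b protein carries the 5S RNA into the large subunit, and its log2 signals in memory fins were 13.96, 13.85 and 13.99 at 0 h and 13.68, 13.66 and 13.67 at 24 h, a difference of -0.26 ± 0.07 (adjusted p = 0.00246) that held under all alternatives run. It was called lower, by 0.21 to 0.22, in memory fins at 12 and 48 h and in control fins at 24 and 48 h, but these calls were lost under 2 or 3 alternatives each, and the memory 12 h difference was -0.03 after centring. The copy rpl5a was called in no comparison.

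Set against its partner on the same array, which removes whatever scales both signals alike, a copy's change can be described without a test. The difference rpl22l1 minus rpl22 was 0.76 higher on the 18 later arrays than on the 6 arrays at 0 h, rpl7l1 minus rpl7 was 1.43 higher and rps27l minus rps27.1 was 1.101 higher. The difference rplp2 minus rplp2b was -0.68 and rps26 minus rps26l -0.30 relative to 0 h. In these 5 pairs all 18 later arrays lay beyond all 6 arrays at 0 h. For rps27.2 minus rps27.1 (-0.36) and rpl5b minus rpl5a (-0.11) they overlapped. How often other gene pairs separate in this way was not counted. Against 0 h, 35.6% to 37.8% of all tested probe sets were called higher and 31.5% to 34.0% lower in the later groups, so such a separation may be common. These pairs were chosen by name, with the earlier results known, and probes of close copies can bind each other's RNA, which was not tested.

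**Figure D3:**
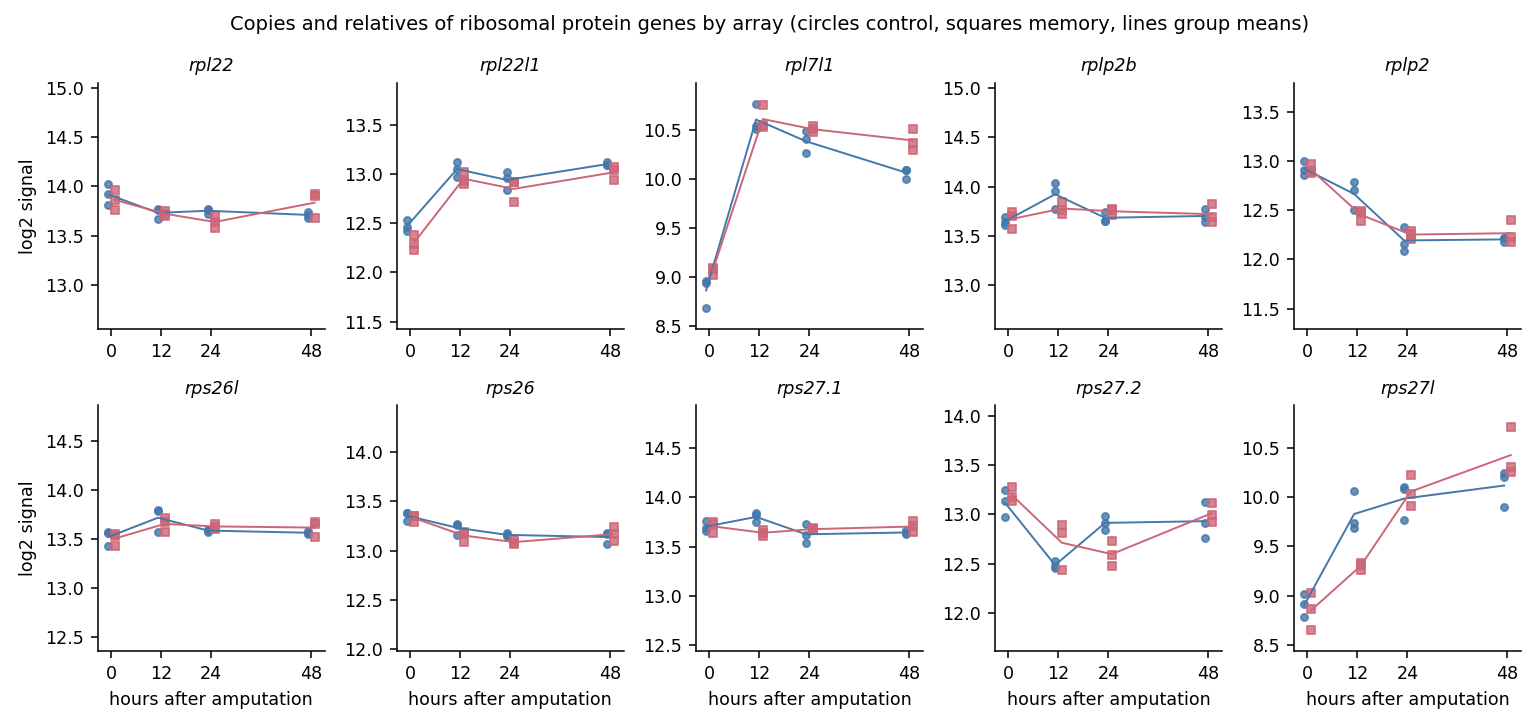
Log2 signal (y axis, each panel spanning 2.5 log2 units) against hours after amputation (x axis) for copies, stalk genes and rpl7l1; blue circles are control arrays, red squares memory arrays and lines the group means of 3 arrays. The signals of rpl7l1, rps27l and rpl22l1 rose and that of rplp2 fell after 0 h, and the group mean of rps27.2 was lowest at 12 h in control and at 24 h in memory fins.

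Between the arms, the ribosomal protein genes differed little. At 0 h no member was called (limma, 2 at an unadjusted p under 0.05), where 5.52% of all tested probe sets were called in either direction. The differences ran from -0.17 to 0.20. At 24 h none was called (1 at an unadjusted p under 0.05, and 3.38% of all tested probe sets called). At 48 h none was called (2 at an unadjusted p under 0.05, and 5.69% called), and rpl7l1 had the largest difference, 0.33 ± 0.10 (limma adjusted p = 0.0509). Its arrays listed above for 48 h do not overlap between the arms, and 1 member was called higher in this comparison under 6 alternatives.

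At 12 h, 2 members were called lower in memory than in control fins and none higher, where 20.7% of all tested probe sets were called lower and 15.5% higher. The first was rps27l, at 9.26, 9.32 and 9.33 in memory against 9.74, 9.69 and 10.06 in control fins, a difference of -0.53 ± 0.14 (adjusted p = 0.00616). The second was rpl13a, a large subunit protein, at 13.90, 13.93 and 13.82 against 14.01, 14.05 and 14.16, a difference of -0.19 ± 0.07 (adjusted p = 0.0399). The arrays of the arms did not overlap for either gene, and the rps27l call held under all alternatives run whereas that of rpl13a was lost under 8 of them. The median of the 73 differences was -0.08, and 66 of 73 lay below 0, against a median of -0.02 and 5247 of 10140 for all tested probe sets. This direction flips with the scaling. Centring arrays on their median, which also takes in probe sets below the filter, shifted all tested probe sets by 0.11. It gave a member median of 0.03, with 1 member called higher and 1 lower. The count was 16 lower with intensity trend and robust estimation, 15 with no filter, 8 with a filter at a log2 of 6, 5 after another quantile normalisation and 4 when the probe sets of each gene were averaged. It was 6 without control 12 h replicate 1, 4 without control 12 h replicate 2 and 1 without control 12 h replicate 3 or memory 12 h replicate 1 or 2.

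The memory arrays at 12 h also differed from the control arrays in other measures. The summed log2 signal of 9 measured of 11 neutrophil and macrophage markers was 13.55 to 13.92 in memory against 11.83 to 12.02 in control fins, that of 7 of 9 bone markers 12.43 to 12.95 against 13.03 to 13.35, and that of all 10 epidermis markers 16.86 to 16.98 against 16.63 to 16.74. Such a sum is set mostly by the brightest genes. Within the bone list, col1a1a, col1a2 and spp1 were called lower in memory fins (-0.43, -0.61 and -0.82). The genes and1, and2, col10a1a and ifitm5 lay 0.06 to 0.45 higher and were not called, so the list did not move as a whole. The labelling controls averaged 5.14 to 5.28 against 4.85 to 4.96. Their part in the ribosomal protein differences was not tested.

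The difference of the 2 arms' responses, that is memory 12 h minus 0 h less control 12 h minus 0 h, was called in 1 member at 12 h, rps6, and there lower (9.08% of all tested probe sets were called higher and 14.4% lower). The rps6 protein is phosphorylated by S6 kinase downstream of mTOR. Its log2 signal in control fins was 13.59, 13.58 and 13.75 at 0 h and 13.85, 13.80 and 14.00 at 12 h, and in memory fins 13.77, 13.76 and 13.78 and 13.62, 13.70 and 13.75. The control arrays rose without overlap and the memory arrays lay below their 0 h values, so that the difference of responses was -0.32 ± 0.11 (adjusted p = 0.0349). The call was lost after centring, with only the groups compared, and without any of 7 single arrays: control 0 h replicate 1 or 2, memory 0 h replicate 1 or 3, control 12 h replicate 3, or memory 12 h replicate 1 or 2. Without control 0 h replicate 3, 2 members were called and without control 12 h replicate 1, 3 were. The count was 11 with intensity trend and robust estimation, 8 with no filter and 2 with a filter at a log2 of 6, all lower. The median of the 73 differences of responses was -0.11 at 12 h, and 0.05 after centring. For rps27l the difference was -0.47 ± 0.20 and not called (adjusted p = 0.0936). At 24 h no member was called (limma, 1 at an unadjusted p under 0.05, 2.50% of all tested probe sets called), and at 48 h none (0 at an unadjusted p under 0.05, 4.38% called).

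**Figure D4:**
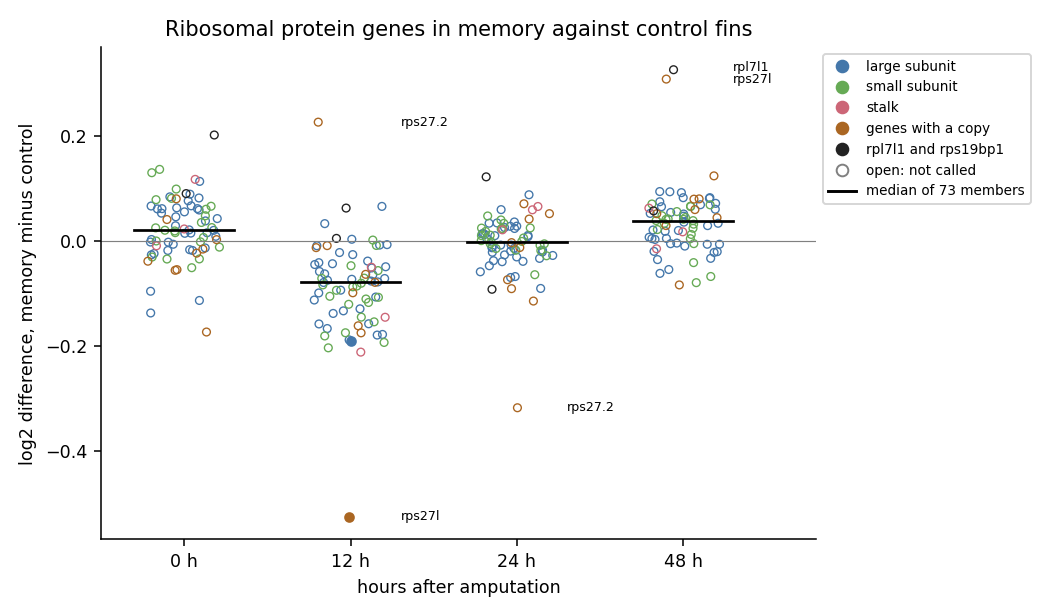
Log2 difference of memory minus control fins (y axis) at 4 times after amputation (x axis) for each of the 73 ribosomal protein genes; filled points passed the limma test, open points did not, colours give the gene class and black bars the median. The members lie slightly below 0 at 12 h, median -0.08, with rps27l and rpl13a called, and no member was called at 0, 24 or 48 h.

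Related gene lists had larger differences from 0 h than the cytosolic members, in both arms, as the plot of list medians shows. Most cytosolic members lie near the top of the scale, where a fold change can be compressed. How far this, or the normalisation between arrays, adds to the gap between the lists was not tested. Of 58 tested genes of the mitochondrial ribosome, which makes the few proteins encoded in mitochondrial DNA, 56, 56 and 55 were called higher in control fins at 12, 24 and 48 h and 58, 58 and 57 in memory fins, with none called lower. The medians were 1.14 to 1.48. In control fins at 12 h mrps23 rose by 2.82 ± 0.12 and mrpl48 by 2.48 ± 0.13. Of 75 tested ribosome assembly and export genes, 69, 67 and 58 were called higher and 5, 4 and 5 lower in control fins, and 69, 68 and 66 higher and 3, 4 and 5 lower in memory fins, with medians of 1.12 to 1.69. The largest rises in control fins at 12 h were noc4l (3.55 ± 0.10), a factor of the small subunit, mrto4 (2.92 ± 0.13), which holds the place of rplp0 on the immature large subunit, nol6 (2.87 ± 0.13) and pwp2h (2.82 ± 0.19), while ddx21 fell by 1.08 and nsa2 fell by 1.12. Of 10 RNA polymerase I genes, 8, 7 and 5 were called higher and 0, 1 and 1 lower in control fins, and 8, 7 and 6 higher with 1 lower each time in memory fins, with polr1e at 2.30 ± 0.12 and polr1c at 2.29 ± 0.12 in control fins at 12 h. Over the 6 comparisons with 0 h, 35.6% to 37.8% of all tested probe sets were called higher and 31.5% to 34.0% lower. Between the arms at 12 h, 26 assembly genes were called higher and 3 lower in memory fins, and of the mitochondrial ribosome 1 was called higher and 18 lower, where 15.5% of all tested probe sets were called higher and 20.7% lower. Cell type markers moved over the same time: from 0 to 12 h the summed log2 signal of the bone and fin ray markers went from 14.90 to 15.00 down to 13.03 to 13.35 in control and from 14.98 to 15.13 down to 12.43 to 12.95 in memory fins. That of the epidermis markers went from 16.41 to 16.48 up to 16.63 to 16.74 in control and from 16.43 to 16.52 up to 16.86 to 16.98 in memory fins. Their part in the changes over time was not tested.

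**Figure D5:**
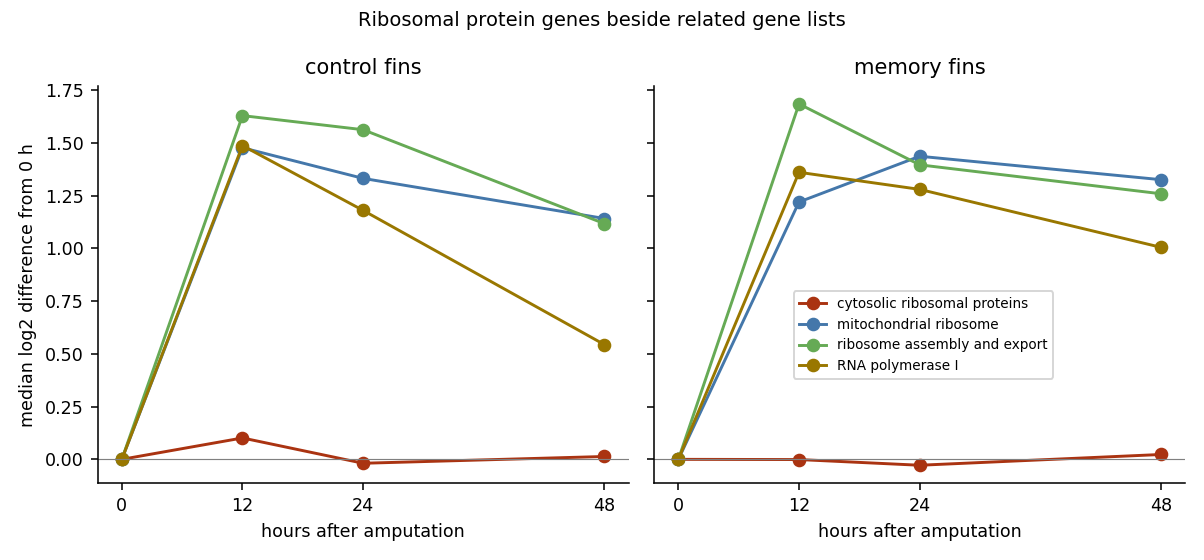
Median log2 difference from 0 h (y axis) against hours after amputation (x axis) for the 73 cytosolic ribosomal protein genes and 3 related gene lists, in control (left) and memory fins (right). The cytosolic ribosomal protein medians stay between -0.03 and 0.10, and the other lists lie between 0.54 and 1.69 at every later time.

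Of 4 tested ribosomal constituents whose names do not meet the rule, 1 was called against 0 h. Of all tested probe sets, 35.6% to 37.8% were called higher and 31.5% to 34.0% lower in the 6 later groups. Between the arms at 12 h, 20.7% were called lower in memory fins. At 12 h in control fins, rpsa, rack1 and faua, with mean signals of 13.63 to 14.33, differed from 0 h by 0.09 to 0.16 and were not called at any time against 0 h. The dimmer faub, which like faua encodes a ubiquitin-like protein fused to a small subunit protein, with a mean signal of 8.42, was called higher in all 6 later groups, by 1.14 ± 0.14 in control fins and 0.35 ± 0.14 in memory fins at 12 h, and was lower in memory than in control fins at 12 h, at -0.80 ± 0.14 (adjusted p = 0.000197).

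Genes of the regulators named in the background were called in both directions, as were all tested probe sets (36.0% higher and 32.5% lower at 12 h in control fins, and 35.6% to 37.8% and 31.5% to 34.0% over the 6 comparisons with 0 h). Of 19 tested genes outside the ribosome, translation factors among them, that carry a 5' TOP motif in mammals, 8 were called higher and 4 lower at 12 h in control fins, 6 and 4 at 24 h and 5 and 7 at 48 h, and 7 and 5, 6 and 8, and 6 and 4 in memory fins. In control fins at 12 h npm1a, a nucleolar chaperone also on the assembly list, rose by 2.79 ± 0.08, eef2a.1, an elongation factor, by 1.41 ± 0.18 and nap1l1, a histone chaperone, by 1.24 ± 0.09, while vim, which encodes the filament protein vimentin, fell by 2.67. Of 19 genes of the mTOR branch, 9 were called higher and 8 lower at 12 h in control fins, 8 and 7 at 24 h and 7 and 7 at 48 h, and 5 and 7, 7 and 7, and 6 and 8 in memory fins. Among the called genes of this list, ddit4, eif4ebp3l and sesn3 encode proteins that act as inhibitors within the branch. They stood at -3.47 ± 0.25, -3.40 ± 0.20 and -2.92 ± 0.22 at 12 h in control fins, all called lower. There eif4e1c, a cap-binding factor, rose by 2.02 ± 0.13. The other called genes of the list are not described here, and the activity of the branch was not tested.

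The counts of the lists that follow stand against the same shares of all tested probe sets, 36.0% called higher and 32.5% lower at 12 h in control fins. Over the 6 comparisons with 0 h these shares were 35.6% to 37.8% higher and 31.5% to 34.0% lower. Of 6 Myc factors, which in mammals drive transcription of ribosomal genes, 3 were called higher and 1 lower at 12 h in control fins, 5 and 1 at 24 h and 2 and 1 at 48 h, and 5 and 1, 4 and 1, and 4 and 2 in memory fins. In control fins mycb rose by 1.94 ± 0.27 at 12 h and myca by 2.99 ± 0.21 at 48 h, and myclb fell by 2.91 at 12 h. Of 13 p53 targets, a list that also holds rps27l, 6 were called higher and 4 lower at 12 h in control fins, 5 and 4 at 24 h and 4 and 4 at 48 h, and 7 and 3, 7 and 4, and 6 and 3 in memory fins, with mdm2, the ubiquitin ligase of p53, at 1.39 ± 0.23 and gadd45aa, a growth arrest gene, at -1.91 ± 0.21 in control fins at 12 h. Of the 8 members whose products bind Mdm2 in mammals, 3 were called higher and none lower at 12 h in control fins, and in each other group against 0 h 1 or 2 were called higher and 1 lower. Of the 18 members mutated in human Diamond-Blackfan anaemia, a failure of red cell production, 5 were called higher and 1 lower at 12 h in control fins, 0 and 2 at 24 h and 1 and 2 at 48 h, and 0 and 3, 0 and 3, and 1 and 2 in memory fins. The members of both lists are among the 73, of which 17 were called higher and 3 lower at 12 h in control fins. In either direction, 8 and 11 of the 73 were called at 24 and 48 h in control fins. In memory fins 9, 11 and 10 were called at 12, 24 and 48 h. Whether either list differs from the other members was not tested.

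Among genes that are no members, those whose 8 group means were most like the mean of the 73 members were rmi1 (Pearson r = 0.93), pigx (0.91), ddx39b (0.91), ecd (0.89) and edf1 (0.88), of 5748 genes compared. The member mean itself ranged over only 0.12 log2 units, and the groups share the same arrays and normalisation, so these values are a description.

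Arrays of a group correlated at 0.978 to 0.996 over all tested probe sets, no pair of arrays was identical, and the 3' over 5' difference of the GAPDH controls was 1.04 to 1.58 log2 units with overlapping groups. Markers of epidermis (10 of 10) and of bone and fin ray (7 of 9) were measured in all groups, while 1 of 9 red blood cell, 1 of 12 skeletal muscle, 3 of 8 pigment cell, 2 of 5 nerve and 0 of 8 lymphocyte markers passed the filter.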

How the data were processed

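Biotin-labelled RNA of 24 fin samples was hybridised to Affymetrix zebrafish arrays. For each probe set the authors deposited a log2 signal, made with GCRMA and Partek per the submitters' processing notes, and the versions are not given in the sources used here. GCRMA adjusts background with probe sequences and brings arrays to a common distribution, so global shifts are removed. Groups came from the labels.

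Array controls (115 of 15617 probe sets) were set aside, and probe sets at a log2 of 4 or more on at least 3 arrays were tested. Gene numbers matched RefSeq symbols for 10718 probe sets. The annotation gave 1 probe set with several symbols that include a ribosomal protein, which was left out, as were the 5 rps6k probe sets. Each comparison was fitted with limma 3.58.1 (lmFit and eBayes, no trend) in R 4.3.3, with 1 mean for each of 8 groups and Benjamini-Hochberg adjustment over 10140 probe sets. The number of arrays limits the precision. The members, gene lists, comparisons and alternatives were chosen with earlier results of these data known, so no list is independent evidence. Named members are up to 5 of each direction per comparison among called genes, where arrays of the groups do not overlap for comparisons over time, with all stalk genes, copies and look-alike names, and up to 4 called genes of each other list. The genes rps4x, rpl11, rpl12, rpl26, rpl36a, rps18, rps29, ddx21, nsa2, faua, rpsa and rack1 fall outside this rule and were chosen after their values were seen. The alternatives were another filter or none, a trend, centring, another quantile normalisation, a replicate block, only the groups compared, other probe sets of a gene, and each array left out. Centring took each array's median over all probe sets but the array controls, also those below the filter. On simulated data with known changes, for control 12 h against 0 h over 10140 probe sets, 45% of changes of 0.5 log2 units and 86% of changes of 1 were called. Only 100 probe sets were changed at each size, whereas in the data 36.0% were called higher and 32.5% lower. The noise was that of all tested probe sets. These shares therefore do not describe how often changes of the members are called. Arrays with the same replicate number were checked for shared deviations, from the data alone. Correlations ran from -0.23 to 0.37, and 19 of 84 were over 0.1. All 3 pairs were over 0.1 between control 12 h and control 24 h and between control 12 h and control 48 h, so the numbers may pair the samples there. The labels do not state a pairing, and of 168 pairs of arrays with different numbers 12 were also over 0.1. In no other compared groups did all 3 pairs pass. No sequences are shown.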

Additional observations from a re-analysis of the deposited data

Results flagged for a closer look

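The response of rps6 at 12 h differed between the arms by -0.324 log2 units (memory minus control, limma adjusted p = 0.0349), a test of the difference itself. It was the only one of the 73 members called in a difference of responses, and the call was lost under 9 alternatives, 7 of which leave out a single array.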

How the results depend on the processing

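The alternatives changed the counts of called members and, in some comparisons, also the sizes of their differences. Of 84 calls, 37 were kept under all alternatives run for them and 47 were lost under at least 1; the difference of rps26 at 12 h in memory fins turned to 0.0173 after centring. The following are numbers of members called, and where a comparison is not named its count stayed within 1.5 times.

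Intensity trend with robust estimation gave 33 at 12 h against 0 h in control fins, 26 from 12 to 24 h in control fins, 3 for each memory step, 16 for memory minus control at 12 h, 1 at 48 h, and 11 for the difference of responses at 12 h. No filter gave 16 from 12 to 24 h in control fins, 2 for each memory step, 15 for memory minus control at 12 h, 1 at 48 h, and 8 for the difference of responses at 12 h. A filter at a log2 of 6 gave 2 from 24 to 48 h in memory fins, 8 for memory minus control at 12 h, 1 at 48 h, and 2 for the difference of responses at 12 h. Fitting only the groups compared gave 5 at each of 12, 24 and 48 h in control fins, 1 for each control step, 6 at 48 h in memory fins, 1 for memory minus control at 12 h, and 0 for the difference of responses at 12 h. That fit has fewer arrays to estimate the spread. Averaging the probe sets of a gene gave 1 from 24 to 48 h in control fins, 4 for memory minus control at 12 h and 1 at 48 h, and the probe set with the lowest mean gave 1 from 24 to 48 h in control fins.

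Centring arrays gave 4 from 24 to 48 h in control fins, 43 at 12 h and 17 from 12 to 24 h in memory fins, and 1 for memory minus control at 48 h. It moved the median of the members to 0.1404 at 12 h and -0.0629 at 48 h in control fins, -0.1423 and -0.0632 in the control steps, 0.1946 at 12 h and 0.0373 at 24 h in memory fins, -0.1562 and -0.0414 in the memory steps, -0.0226 at 0 h and 0.0343 at 12 h for memory minus control, and 0.0485, 0.0293 and 0.0713 for the differences of responses at 12, 24 and 48 h. Another quantile normalisation gave 2 from 12 to 24 h in control fins, 16 at 48 h in memory fins, 2 for each memory step and 5 for memory minus control at 12 h. Its medians were 0.0425 at 24 h and 0.0698 at 48 h in control fins, -0.0445 from 12 to 24 h in control fins, 0.0403 at 24 h and 0.0918 at 48 h in memory fins, and -0.0635 for the difference of responses at 12 h. For these medians the cause was not tested.

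The replicate block gave 6 members called from 12 to 24 h in control fins, where the numbers may pair the samples and where the calls of rpl13a and rplp2b were lost. It gave 9 at 48 h in memory fins, where the call of rps26 was lost (adjusted p = 0.0508), 2 from 24 to 48 h in memory fins, 3 for memory minus control at 12 h and 1 at 48 h. The block took away no other call made in the main fit, and which members gained a call is not given here. It left the counts of the other comparisons as they were, at 20 for 12 h against 0 h in control fins.

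Without 1 array, counts ran from 13 to 20, 6 to 9 and 8 to 11 in control fins at 12, 24 and 48 h, and from 1 to 11 and 0 to 2 in the control steps. They were 8 to 9, 10 to 10 and 7 to 10 in memory fins, 1 to 1 and 0 to 2 in the memory steps, 1 to 6 for memory minus control at 12 h and 0 to 3 for the difference of responses at 12 h. For the other comparisons between arms they were 0. Changes under about 0.16 log2 units were not called in a member in the main fit.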
